A study of Mus musculus with 16 samples.

Results

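The genes described here encode the enzymes of glycolysis, the transporters that bring glucose into a cell and carry lactate out of it, and genes that answer to low oxygen. They were the 34 rows of the deposited expression table with the listed symbols, of 24016 genes in the table. Of the 34 genes, 24 belong to glycolysis, its transporters and its regulators, and 10 to the hypoxia response. All 34 were found. A test was made for genes with at least 1 FPKM (fragments per kilobase, a level already corrected for transcript length and library size) in at least 8 of the 16 libraries. This filter kept 33 of the 34 genes, all but Car9, and 13123 genes in all.

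The measurements are RNA levels of 16 whole mouse lung tumors, which the labels call small cell lung cancer. The mice were H11 LSL-Cas9 (B6;129-Igs2tm1(CAG-cas9*)Mmw/J), in which Cas9 stays silent until Cre acts. At 2 to 4 months of age they received 400000000 VP of a CMV Cre adenovirus through the trachea, and tumors were taken at the endpoint of the study. The virus was sgControl RPP for 8 tumors and sgKdm5a RPP for the other 8, so both groups carry the RPP guides and the second adds a guide to Kdm5a, which encodes a demethylase of histone H3. RPP is read here, from knowledge of the model, as guides against Rb1, Trp53 and Rbl2. The CMV promoter is not bound to a cell type, and host cells that took up no virus are part of each bulk tumor. Each column of the table is headed by its own number, which the labels attach to the tumor. It is read here as a mouse number and called so below, and on that assumption each library was treated as 1 animal. No library of normal lung was used here.

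Glycolysis turns glucose into pyruvate, and lactate dehydrogenase can turn that pyruvate into lactate, which leaves the cell through monocarboxylate transporters. Under low oxygen the alpha subunits HIF-alpha (Hif1a, and Epas1, also called Hif2a) escape the prolyl hydroxylases that mark them for destruction, pair with Arnt and bind DNA at hypoxia response elements. Many glycolytic genes are among their targets. Most of the control over the alpha subunits acts on the protein, so their RNA alone does not give the activity of the pathway.

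The check of the targeted gene went against the labels. Kdm5a RNA had a lowest, median and highest level of 3.28, 7.66 and 8.06 FPKM in the sgControl-labelled tumors and of 8.16, 12.3 and 17.3 FPKM in the sgKdm5a-labelled tumors. The groups did not overlap, and the log2 difference was 0.84 (two-sided exact permutation test over 12870 assignments, p = 0.0001554, the smallest that 8 against 8 tumors can give). With each library scaled to a common median of the tested genes, they overlapped and the difference was 0.61 (exact p = 0.00886). In limma over all tested genes the adjusted p was 0.852 as deposited and 0.363 after scaling. An edited gene can still be transcribed, and the RNA level does not report the edit itself. The groups are therefore named by their labels throughout.

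The library of sgControl RPP tumor 1 stood apart. Tested genes had a median of 2.38 FPKM there and of 10.0 to 12.3 FPKM in each of the other 15. The entry Mir6236 was listed there at 904068 FPKM, against 27123 to 84160 FPKM. That was 88.9% of the summed FPKM of the library, against 5.76% to 15.2% in the others, and what RNA gave these reads was not tested. This library held the lowest deposited value of 30 of the 34 genes, and of 4 after median scaling. Levels below are given as deposited in FPKM, with scaled FPKM where tumors are set side by side. The 7 neuroendocrine tumor markers summed to 1887 to 12725 scaled FPKM in the sgControl-labelled tumors and to 3055 to 10890 in the sgKdm5a-labelled tumors, so the labelled tumor type had its defining markers in all 16.

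No glycolysis or hypoxia gene passed the test of a difference between the labelled groups, and single tumors within a group spread widely. In the limma fit over all tested genes, 0 of the 33 tested genes passed an adjusted p of 0.05, and their adjusted p ran from 0.852 to 0.997. The same rule called 1 of 13123 genes, 0.00762% of those tested, so the group contrast as a whole gave almost no calls. At an unadjusted p under 0.05, limma called 0 of the 33 genes, against a background of 4.42% of all tested genes, and 1 of 33 after scaling, against a background of 9.94%. That gene was Pfkp. Their median log2 difference, sgKdm5a-labelled minus sgControl-labelled, was 0.21, and that of all tested genes was also 0.21. Of the 33, 17 lay above the all-gene median as deposited and 13 after scaling. Mouse numbers form 2 series, 190 to 238 with 7 sgControl-labelled and 4 sgKdm5a-labelled tumors, and 839 to 893 with 1 and 4. In the first series alone 15 of the 33 lay above the all-gene median. None had groups that did not overlap, against 0.0838% of all tested genes as deposited and 0.107% after scaling.

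**Figure D1:**
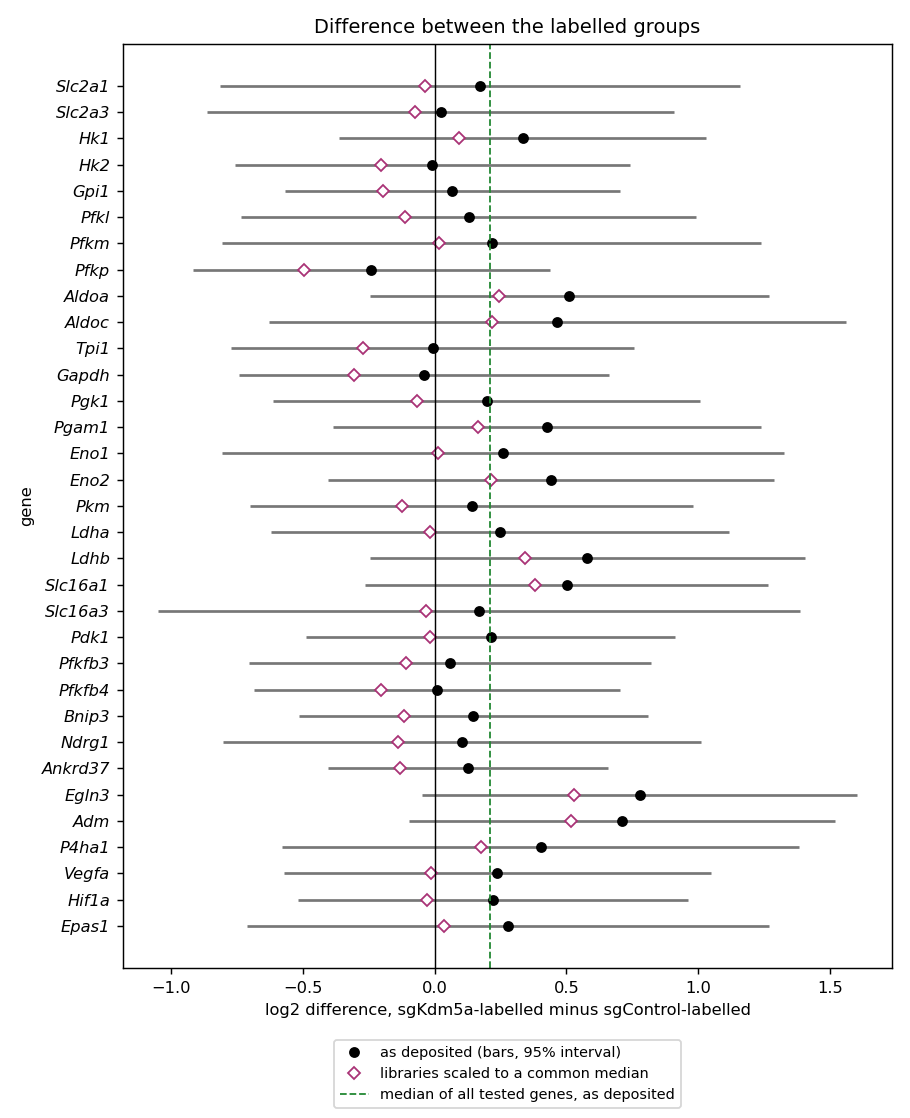
Log2 difference between the sgKdm5a-labelled and sgControl-labelled tumors (8 each) for the 33 tested genes, with 95% limma intervals on the deposited values, and the same difference after scaling each library to a common median. The dashed line at 0.21 is the median of all tested genes. The points run from -0.24 for Pfkp to 0.78 for Egln3, and every interval takes in 0.

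These intervals set what could have been seen. Their median width was 1.62 on the log2 scale, and 1.16 after scaling, so a difference of modest size in any of these genes was not detectable with 8 tumors a group.

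Enzymes of glycolysis held the highest levels. Over the 16 tumors the median was 570 FPKM for Gapdh (glyceraldehyde phosphate dehydrogenase), 545 for Ldha, the muscle-type lactate dehydrogenase subunit, 513 for Aldoa (aldolase A), 429 for Pkm (pyruvate kinase), 412 for Tpi1 (triosephosphate isomerase) and 307 for Pgk1 (phosphoglycerate kinase). Pgam1, the next enzyme of the chain, followed at 199 FPKM, then Bnip3, a mitophagy receptor induced by hypoxia, at 147 and Gpi1 (glucose phosphate isomerase) at 127. At the other end stood Hk2 with 3.82, Adm with 3.61, Slc2a3 with 1.87 and Car9 with 0.868 FPKM. Neighbours in this order were mostly not separable. Of the 33 neighbouring pairs, only Pgk1 above Pgam1 had the same order in all 16 tumors.

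Of the glucose transporters, Slc2a1 (GLUT1), the widespread form, had the higher RNA level. Its lowest, median and highest level was 1.77, 33.7 and 55.3 FPKM in the sgControl-labelled tumors and 15.9, 29.1 and 50.3 FPKM in the sgKdm5a-labelled tumors. Slc2a3 (GLUT3), a high-affinity transporter known from neurons, stood at 0.187, 2.11 and 7.28 FPKM and at 0.166, 1.65 and 5.30 FPKM. The groups overlapped for both transporters. Slc2a3 had the largest ratio of the highest to the lowest scaled level of all 34 genes, 41.1-fold, against 6.76-fold for Slc2a1. That ratio leans on low values, since its lowest scaled level was 0.175 FPKM, below the 1 FPKM of the filter. On log2(scaled FPKM + 1) its pooled SD within the labelled groups was 0.91, less than 1.02 for Pfkm and 0.94 for Aldoc. Its share of the 2 transporters' summed FPKM had a median of 7.40% and ran from 0.338% to 23.1%.

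Of the hexokinases, which trap glucose as its phosphate, Hk1 prevailed. Its levels were 4.91, 31.1 and 40.5 FPKM in the sgControl-labelled tumors and 25.8, 33.1 and 43.7 FPKM in the sgKdm5a-labelled tumors, and it was the steadiest of the 34 genes, with a 1.99-fold range of scaled levels. Hk2, the inducible form often raised in cancers, stood at 1.10, 3.82 and 6.04 FPKM and at 0.870, 3.93 and 8.05 FPKM. Hk2 made up a median of 11.6% of their sum. The groups overlapped for both.

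Phosphofructokinase commits sugar to glycolysis and is built from liver (Pfkl), muscle (Pfkm) and platelet (Pfkp) subunits. Pfkl supplied a median of 49.2% of the summed FPKM, Pfkp 40.7% and Pfkm 9.37%. Pfkp had levels of 9.80, 31.8 and 57.3 FPKM in the sgControl-labelled tumors and 14.2, 28.1 and 42.7 FPKM in the sgKdm5a-labelled tumors. The groups overlapped, and its log2 difference was -0.24 as deposited and -0.50 after scaling (limma, unadjusted p = 0.0311, adjusted p = 0.462). Pfkm fell into separate ranges. It lay between 1.26 and 3.59 FPKM in 8 tumors and between 9.23 and 21.7 FPKM in the other 8, and 4 tumors of each labelled group were in the upper range. For sgControl RPP tumor 1, the lowest of the lower range, the scaled level was 6.23 FPKM, which lies between the ranges. Pfkfb3 and Pfkfb4 make a regulatory fructose bisphosphate that activates phosphofructokinase and differs from the one phosphofructokinase makes. They had medians over the 16 tumors of 5.98 and 9.82 FPKM.

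**Figure D2:**
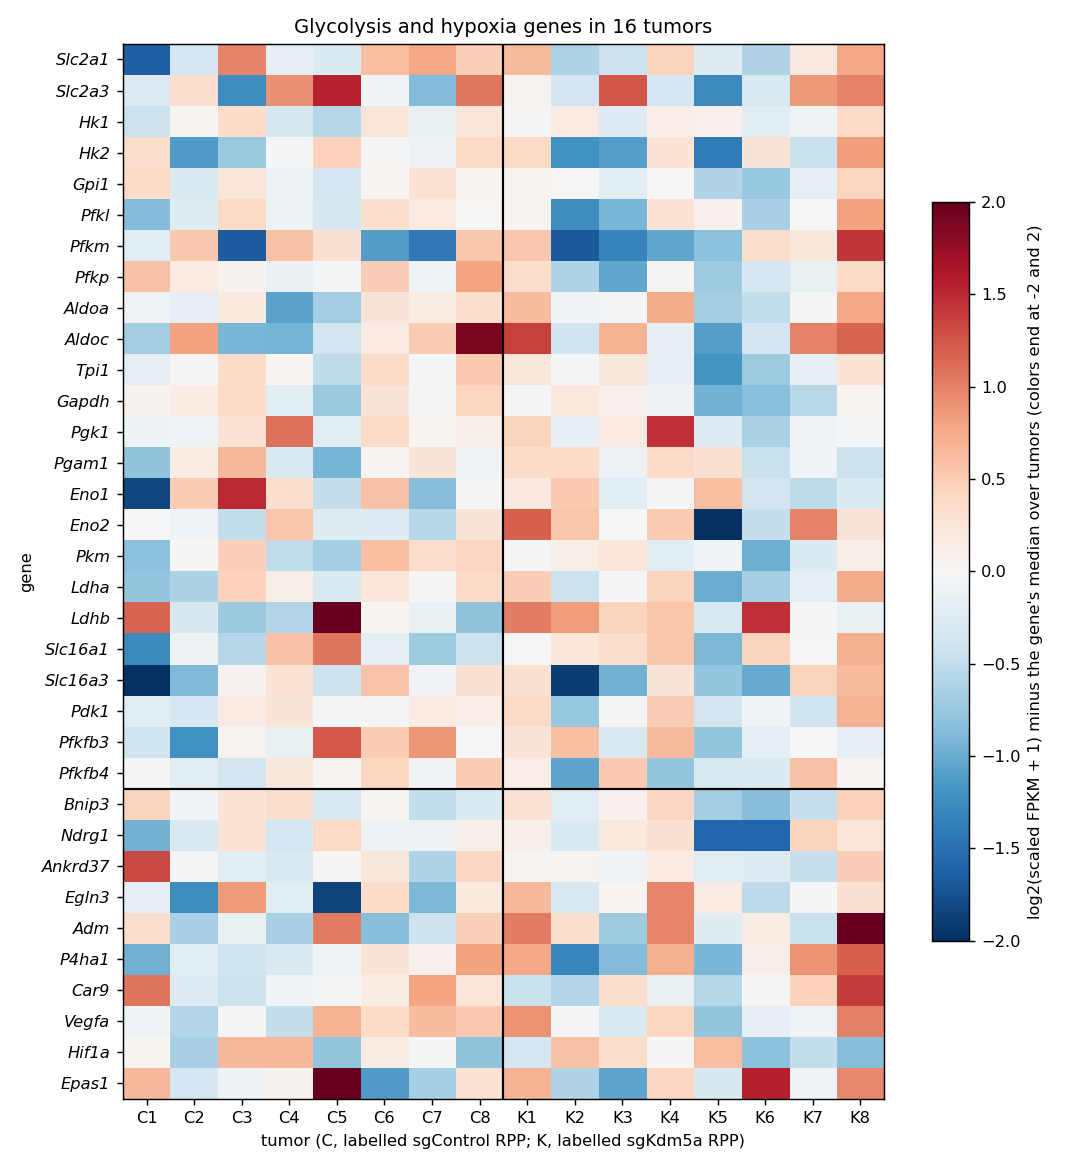
Levels of the 34 genes in the 16 tumors, as log2(scaled FPKM + 1) minus each gene's median over tumors. The line across separates the 24 glycolysis genes from the 10 hypoxia genes and the upright line separates the labelled groups. The column of sgKdm5a RPP tumor 8 is high in most rows, and that of sgKdm5a RPP tumor 5 is low in many.

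Aldoa, which splits the fructose bisphosphate made by phosphofructokinase, had levels of 99.8, 492 and 655 FPKM in the sgControl-labelled and 304, 513 and 880 FPKM in the sgKdm5a-labelled tumors. Aldoc, the aldolase of brain and nerve cells, had 7.04, 55.1 and 217 FPKM and 24.9, 68.5 and 154 FPKM. Groups overlapped for both, and Aldoc supplied a median of 11.4% of the pair. Its highest value, 217 FPKM, belonged to sgControl RPP tumor 8.

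Gapdh ran from 123 over a median of 591 to 798 FPKM in the sgControl-labelled tumors and from 287 over 552 to 601 FPKM in the sgKdm5a-labelled tumors. Tpi1 ran from 74.9 over 425 to 622 FPKM and from 177 over 384 to 513 FPKM. Both had overlapping groups with log2 differences of -0.04 and -0.01, and of -0.31 and -0.27 after scaling. Pgk1, the first enzyme of the path to yield ATP, ran from 56.5 over 321 to 651 FPKM and from 203 over 299 to 820 FPKM. In each group 1 tumor lay far above the rest, sgControl RPP tumor 4 at 651 FPKM and sgKdm5a RPP tumor 4 at 820 FPKM. All other tumors were at or below 424 FPKM.

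Eno1, the widespread enolase, had a median of 107 FPKM over the 16 tumors, and Eno2, the neuron-specific enolase used clinically as a marker of small cell lung cancer, 12.6 FPKM. Eno1 is uncertain, because its near copy Eno1b has a row of its own, with 23.9 to 652 FPKM in the sgControl-labelled tumors and 102 to 357 FPKM in the sgKdm5a-labelled tumors, and reads may have been divided between them. The share of Eno2 in the enolases had a median of 13.1%, and of 5.18% when Eno1b was added to the sum. Aldoa has the near copy Aldoart1 in the table, and other glycolytic genes also have copies elsewhere in the mouse genome. Pkm had levels of 51.9, 509 and 705 FPKM and of 239, 415 and 501 FPKM. The groups overlapped, although no sgKdm5a-labelled tumor reached the sgControl-labelled median as deposited. After scaling, sgKdm5a RPP tumor 3 lay above that median, at 536 scaled FPKM. The table does not divide Pkm into its splice forms.

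Ldha carried nearly all lactate dehydrogenase RNA. Its levels were 66.6, 593 and 750 FPKM in the sgControl-labelled tumors and 270, 515 and 943 FPKM in the sgKdm5a-labelled tumors. Ldhb, the heart-type subunit, had 3.82, 5.40 and 48.3 FPKM and 5.87, 11.1 and 24.5 FPKM. All 8 sgKdm5a-labelled tumors lay above the sgControl-labelled median of Ldhb as deposited. After scaling, sgKdm5a RPP tumor 5 lay below it, at 6.17 scaled FPKM. The groups overlapped, and the log2 difference was 0.58 as deposited (SE 0.40, limma, adjusted p = 0.852). The share of Ldhb had a median of 1.61% and ran from 0.551% to 9.49%. The highest share was in sgControl RPP tumor 5, and the next was in sgKdm5a RPP tumor 6 with 6.20%.

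Of the lactate transporters, Slc16a3 (MCT4) had the higher RNA level, with 1.53, 49.0 and 77.2 FPKM in the sgControl-labelled tumors and 10.9, 43.8 and 79.3 FPKM in the sgKdm5a-labelled tumors. Slc16a1 (MCT1) had 0.420, 5.16 and 15.01 FPKM and 2.87, 7.43 and 11.4 FPKM. The groups overlapped for both. Slc16a3 held a median of 86.6% of their sum, with 62.1% as the lowest share, in sgKdm5a RPP tumor 2. Pdk1, the kinase that closes pyruvate's way into the mitochondria, stood at 3.24, 19.2 and 22.6 FPKM and at 9.01, 18.1 and 30.8 FPKM.

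**Figure D3:**
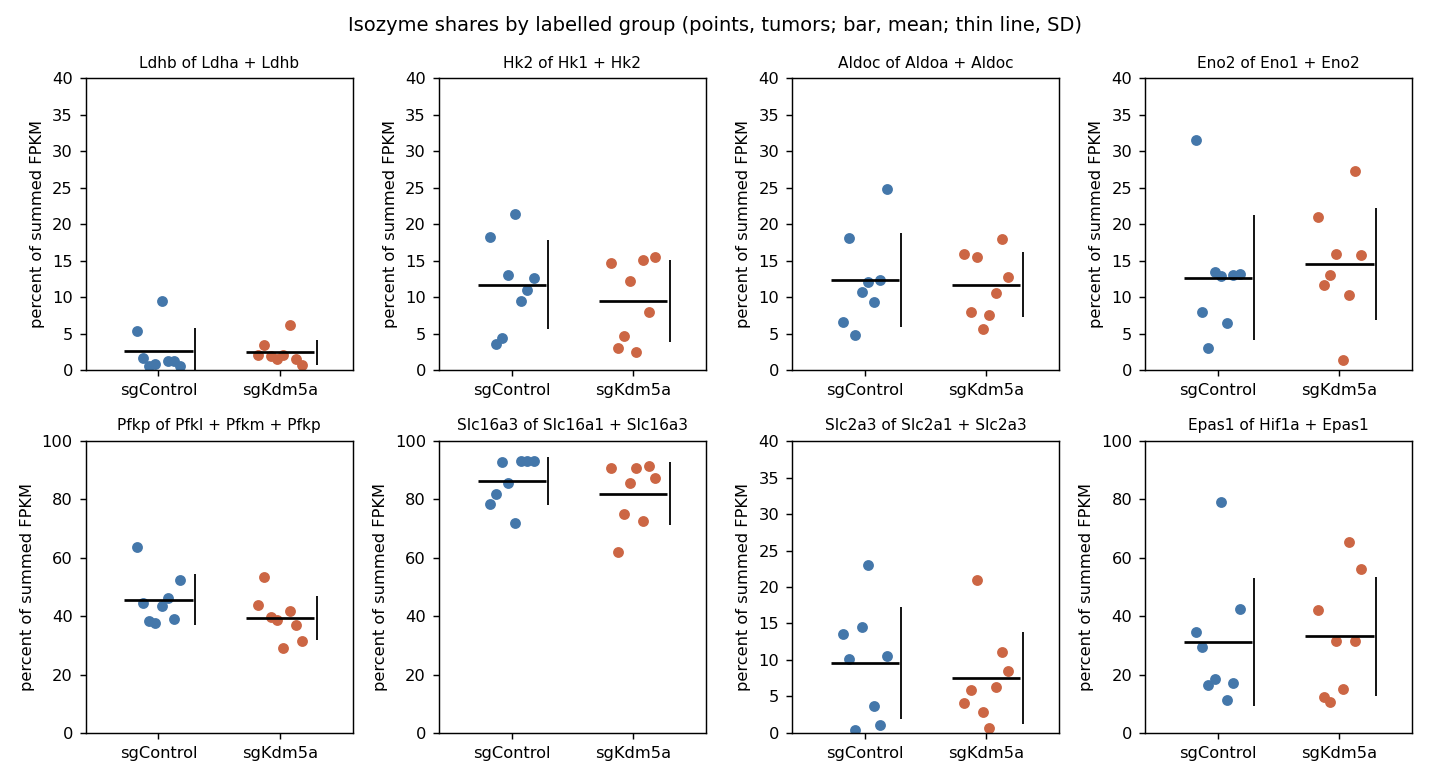
Share of 1 isozyme in the summed FPKM of its family, by labelled group. Points are tumors, bars are means and thin lines are 1 SD (8 tumors a group), and the axes end at 40% or at 100%. In each of the 8 panels the points of the groups overlap, with Slc16a3 above 60% throughout and Ldhb below 10% throughout.

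None of the 8 isozyme shares passed the test between the labelled groups. The differences ran from -6.28 percentage points for Pfkp (45.7% ± 8.80 against 39.4% ± 7.51, SD, n = 8 each, exact permutation p = 0.149) to 1.94 points for Epas1. After adjustment over the 8 shares each exact permutation test had p = 0.914.

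Both HIF alpha subunits were transcribed in all 16 tumors. Hif1a had levels of 8.01, 30.2 and 60.7 FPKM in the sgControl-labelled tumors and 20.7, 34.3 and 55.5 FPKM in the sgKdm5a-labelled tumors. Epas1, known in lung from endothelium and alveolar cells, had 4.22, 10.4 and 83.0 FPKM and 5.40, 15.2 and 41.9 FPKM. Groups overlapped for both. Epas1 made up a median of 30.3% of the pair and ranged from 10.6% to 79.0%, with the top in sgControl RPP tumor 5 and the highest sgKdm5a-labelled share, 65.6%, in tumor 6.

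Those tumors were also the highest of their groups for markers of normal lung. The 5 alveolar type 2 markers summed to 5114 scaled FPKM in sgControl RPP tumor 5 (lowest and median of its group 49.2 and 77.9) and to 2645 in sgKdm5a RPP tumor 6 (26.3 and 670). The 3 club cell markers summed to 52718 and 27500 scaled FPKM there, against group medians of 558 and 3153. Of 5 endothelial markers the sum was highest in sgControl RPP tumor 5, at 118 scaled FPKM, and in sgKdm5a RPP tumor 8, at 84.2. The sums of the 5 macrophage markers in the table were highest in sgControl RPP tumor 5 and sgKdm5a RPP tumor 6. They were 2074 and 1262 scaled FPKM, against group medians of 193 and 528. The highest Ldhb levels of each group lay in the same tumors, and the 20 genes most alike to Ldhb held the leukocyte genes Ptprc, Itgb2, Rac2 and Lyn. The 20 most alike to Epas1 held the interferon-induced genes Ddx58 (r = 0.91), Gbp6 (r = 0.90), Gbp3 and Gbp7 (r = 0.88 each). Foxj1, a marker of ciliated cells, was also among them, and the endothelial Cdh5 and the alveolar Sftpc were not.

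Relations of Epas1 with a marker were tested for a pair of genes. With Cdh5, the endothelial cadherin, it had rho = 0.61 (permutation p = 0.0430 adjusted over 18 pairs) and r = 0.62 (permutation adjusted p = 0.0667). Without the 2 tumors farthest out in Epas1, sgControl RPP tumor 5 and sgKdm5a RPP tumor 6, the relation was weaker and did not pass. There r was 0.50 and rho 0.48 (permutation adjusted p = 0.254 and 0.199). Leaving out the ends of a range can lower r in any pair, so this does not show that the relation rests on those tumors. In the 11 mice numbered 190 to 238 alone r was 0.39 (adjusted p = 0.389). With Sftpc, the surfactant gene of alveolar type 2 cells, r was 0.51 and rho 0.41 (permutation adjusted p = 0.103 and 0.233), and r was 0.12 without the same 2 tumors. In bulk samples more cells of a type and more RNA per cell cannot be told apart, and for Ldhb the part of these markers was not tested.

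Several HIF targets spread widely among tumors, 12.1-fold between the lowest and highest scaled level for Adm, 7.69-fold for Egln3 and 6.14-fold for P4ha1, against 2.52-fold for Bnip3. Adm, the vessel-widening peptide adrenomedullin, had 1.23, 2.83 and 10.5 FPKM in the sgControl-labelled tumors and 2.21, 5.17 and 25.2 FPKM in the sgKdm5a-labelled tumors. Its log2 difference was 0.71 (SE 0.39, limma, adjusted p = 0.852), and 7 of the 8 sgKdm5a-labelled tumors lay above the sgControl-labelled median as deposited. After scaling, sgKdm5a RPP tumor 7 also lay below that median, at 3.05 scaled FPKM. Egln3, a HIF prolyl hydroxylase that hypoxia itself induces, had the largest difference of the 33 genes, 0.78 (SE 0.40, same adjusted p), with 7.42, 28.4 and 70.0 FPKM against 28.2, 43.0 and 80.8 FPKM. The groups overlapped for both. In the 11 mice numbered 190 to 238 alone the difference of Egln3 was 0.31, that of Adm 1.06 and that of Ldhb 1.004, with limma unadjusted p of 0.563, 0.0277 and 0.0198 and adjusted p of 0.995, 0.802 and 0.731.

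Vegfa, the growth factor of vessels, stood at 8.37, 50.9 and 72.2 FPKM in the sgControl-labelled tumors and at 24.3, 42.2 and 90.1 FPKM in the sgKdm5a-labelled tumors. Ndrg1, a stress-response gene, stood at 4.92, 44.5 and 63.8 FPKM and at 14.5, 52.3 and 68.6 FPKM, and its lowest scaled levels were in sgKdm5a RPP tumors 5 and 6. P4ha1, a collagen prolyl hydroxylase, stood at 2.68, 23.6 and 48.1 FPKM and at 8.67, 36.8 and 62.8 FPKM. Ankrd37 and Bnip3 had medians over all tumors of 30.3 and 147 FPKM, and the highest scaled level of Ankrd37, 86.7 FPKM, was in sgControl RPP tumor 1. Car9, the carbonic anhydrase widely used as a marker of hypoxic tumor areas, had 0.401, 0.868 and 2.32 FPKM and 0.235, 0.863 and 4.09 FPKM, and it was too low in most tumors to be tested.

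A single tumor stood highest for much of the set. In scaled levels sgKdm5a RPP tumor 8 held the top value of 14 of the 34 genes, namely Hk1, Hk2, Gpi1, Pfkl, Pfkm, Aldoa, Ldha, Slc16a3, Pdk1, Bnip3, Adm, P4ha1, Car9 and Vegfa. The most top values in another tumor were 5. How often this tumor was highest over all tested genes was not counted, so the count is not shown to be particular to this set. In the same tumor Hif1a had the lowest scaled level of all 16 tumors, 20.7 FPKM. At the other end, sgKdm5a RPP tumor 5 held the lowest value of 8 genes, tumor 2 of 6 and tumor 6 of 5.

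The tumor-to-tumor pattern of several genes was shared with their chromosomes. For each of the 33 tested genes, the 20 genes most alike were taken by Pearson r of scaled log2 levels over the 16 tumors, a measure chosen after values were seen and given as a description. For Hif1a, on chromosome 12, 19 of the 20 lay on chromosome 12, which holds 3.48% of the tested genes. They were led by Ppp2r5c and Yy1 (r = 0.93 each) and by Ubr7 (r = 0.92). For Pgk1, on X, 15 of 20 lay on X (3.22% of tested genes), led by Rbbp7 with r = 0.81. For Pfkfb4, 13 lay on its chromosome 9 (5.80%), and for Pgam1, 10 lay on its chromosome 19 (3.45%), led by Ints5 with r = 0.92.

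Gapdh had 9 and Tpi1 6 of the 20 on chromosome 6 (4.88%), and each was the other's closest gene, with r = 0.90. Eno1 had 7 on chromosome 4 (6.57%). Of the 33 genes 11 (33.3%) had at least 5 of the 20 on their own chromosome, against 23.6% of all 13072 tested genes with a known chromosome, and by ranks 7 (21.2%) against 19.9%. Such likeness was thus widespread among tested genes, and by ranks the share in this set was near that of all genes. A count of 19 or more, as for Hif1a, was reached by 188 genes, 1.44%. Slc2a1, Pfkp, Aldoc and Epas1 had 0. The counts were not equally firm. With ranks in place of values Hif1a kept a count of 19, Gapdh had 8, Pgam1 and Pfkfb4 6 each, Tpi1 5, and Pgk1 and Eno1 4 each. As deposited Eno1 had 2.

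**Figure D4:**
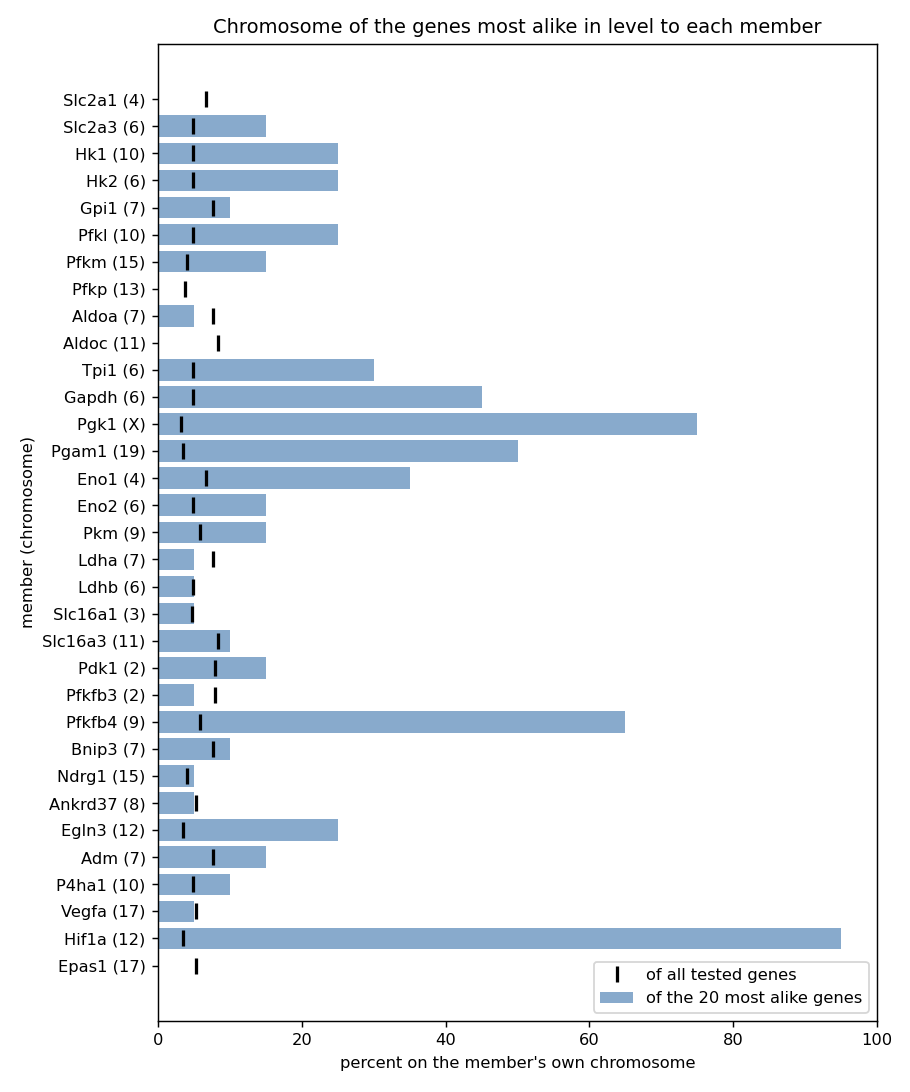
Percent of the 20 genes most alike in level to each tested gene that lie on that gene's own chromosome (bars), beside the percent of all tested genes on it (ticks). Chromosome names stand in brackets. The bar of Hif1a reaches 95%, against a tick at 3.48%, and those of Slc2a1, Pfkp, Aldoc and Epas1 are at 0.

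Whole chromosomes differed between tumors, and some of these genes with them. The level of a chromosome was taken as the median, over its other tested genes, of the log2 difference from each gene's own median over tumors. On chromosome 12 (453 genes) it was -0.55 in sgKdm5a RPP tumor 8, -0.50 in sgControl RPP tumor 8, -0.42 in sgKdm5a RPP tumor 6 and in sgControl RPP tumor 2, and -0.30 in sgControl RPP tumor 5. In the other 11 tumors it ran from -0.07 to 0.27. Those 5 tumors were also the 5 lowest for Hif1a, with 20.7 to 24.03 scaled FPKM, against 26.8 to 60.6 in the other 11. They belong to both labelled groups. Egln3, the other of these genes on chromosome 12, did not follow it throughout. Its lowest scaled levels, 10.7 and 16.9 FPKM, were in sgControl RPP tumors 5 and 2, but in sgKdm5a RPP tumor 8 and sgControl RPP tumor 8, where the chromosome was lowest, Egln3 was at 50.9 and 47.2, above its median of 41.2. It had 5 of its 20 most alike genes there, and 2 by ranks.

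On X the level was 0.82 in sgControl RPP tumor 4 and 0.29 in sgKdm5a RPP tumor 4, and at most 0.05 in any other tumor. In these 2 tumors Pgk1 stood far above the rest, but in the opposite order, at 648 and 834 scaled FPKM, so the match was partial. On chromosome 6 (632 genes) the level was -0.60 in sgKdm5a RPP tumor 5 and no lower than -0.03 elsewhere. That chromosome carries 6 of the tested genes, and 5 of them, Slc2a3, Hk2, Tpi1, Gapdh and Eno2, had their lowest scaled level in sgKdm5a RPP tumor 5. How many other genes of chromosome 6 were lowest in that tumor was not counted, and over all 34 genes it was lowest for 8, these 5 among them. The log2 difference of the 5 from their own medians ran from -0.95 for Gapdh to -2.11 for Eno2, further down than the chromosome level. Tpi1 was at 186 scaled FPKM there (lowest of the other 15 tumors 256), Gapdh at 301 (326) and Eno2 at 2.38 (8.86). Ldhb, the sixth, was at 6.17, above the lowest of the others.

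On chromosome 19 the level was -0.54 in sgKdm5a RPP tumor 8 and -0.39 in sgControl RPP tumor 5, where Pgam1 stood at 146 and 102 scaled FPKM. In sgControl RPP tumor 6, at -0.26, Pgam1 was 202 scaled FPKM, and in sgControl RPP tumor 1 and sgKdm5a RPP tumor 6, where the chromosome was near 0, it was 111 and 143, so the match was partial. On chromosome 9 it was lowest, -0.33, in sgKdm5a RPP tumor 2, where Pfkfb4 had its lowest scaled level, 4.23 FPKM. On chromosome 4 it was 0.59 in sgKdm5a RPP tumor 2 and 0.36 in tumor 5, where Eno1 stood at 154 and 161 scaled FPKM, within the range of the other tumors. Chromosome 7, which carries Ldha, Aldoa, Gpi1, Bnip3 and Adm, stayed between -0.09 and 0.08 in all 16 tumors. DNA was not measured in the files used here.

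**Figure D5:**
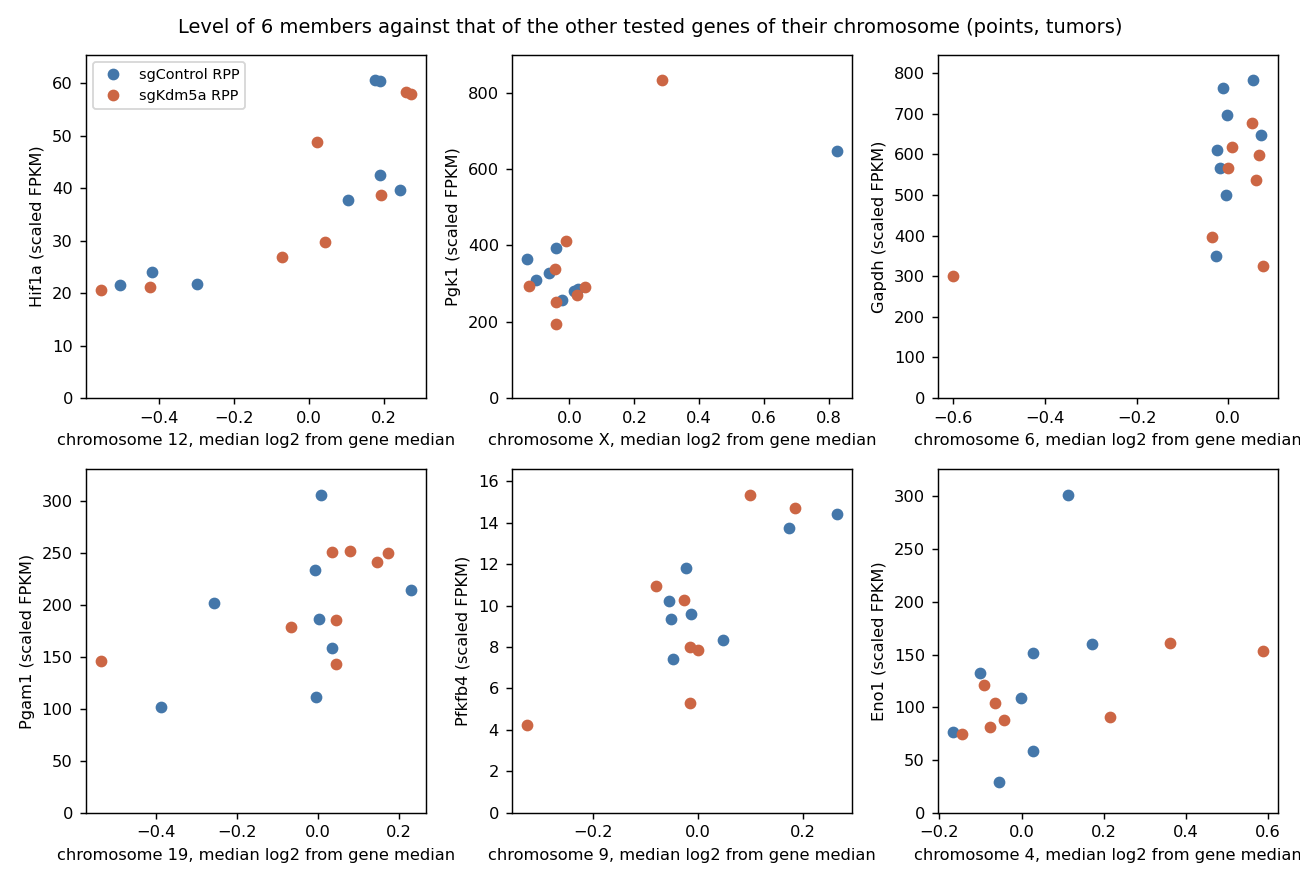
Scaled FPKM of Hif1a, Pgk1, Gapdh, Pgam1, Pfkfb4 and Eno1 against the median log2 level of the other tested genes of their chromosome, 1 point per tumor, colored by labelled group. The 5 lowest Hif1a values, 20.7 to 24.03 scaled FPKM, lie in the 5 tumors with the lowest chromosome 12 level. The 2 highest Pgk1 values lie in the 2 tumors with the highest X level, though in the opposite order.

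Some genes of the set were most alike to each other. Of Ldha's 20 most alike genes, 5 were themselves of the set, Slc2a1, Pdk1, Tpi1, Slc16a3 and Ndrg1, led by Slc2a1 with r = 0.80. On its own chromosome 7 lay 1 of the 20, and 5 without sgControl RPP tumor 1. Slc2a1 in turn had Slc16a3, Pfkl and Ldha among its 20, with r = 0.88 for Slc16a3. In all, 11 of the 33 genes had another of the set among their 20. No such count was made for other sets of genes, so this is a description only.

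Of 18 pairs of genes tested for a relation over the 16 tumors, with p-values adjusted over the 18, Vegfa and Adm rose together by both measures (Pearson r = 0.69, permutation adjusted p = 0.0468, Spearman rho = 0.66, adjusted p = 0.0292). Without the 2 tumors farthest out in Vegfa, sgKdm5a RPP tumors 1 and 8, the relation was weaker and did not pass. There r was 0.50 and rho 0.50 (permutation adjusted p = 0.254 and 0.185). Here too, leaving out the ends of the range does not show that the relation rests on those tumors. In the 11 mice numbered 190 to 238 alone r was 0.61 (adjusted p = 0.265), and the 5 mice numbered 839 to 893 were too few for a value. Pgk1 and Ldha had rho = 0.78 (permutation adjusted p = 0.0121) and r = 0.58 (adjusted p = 0.0667), and r = 0.71 (adjusted p = 0.0363) without the 2 tumors farthest out in Pgk1. Of the 18 pairs, 8 passed by rho and 1 by r, and none passed in the 11 mice alone. Hif1a and Pgk1 had r = 0.36 and rho = 0.31, with permutation adjusted p of 0.292 and 0.409.

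The hypoxia response element has a core of 5 letters, ACGTG, with GCGTG as its other common form. Both forms were searched on both strands in the 250 bases before each start site, in RefSeq sequence of build GRCm38.p6. Of the 34 genes 31 matched an entry, with 45 windows. For 35 of these windows, the bases just after the start site were found in a known transcript of the gene. The shares below count all 45. The form ACGTG, which reads CACGT on the other strand and is met on both strands within CACGTG, was found in 46.7% of the 45 windows, against 21.2% of the windows of tested genes and 16.6% of all 32851 windows. The form GCGTG, which reads CACGC on the other strand, was found in 53.3%, against 44.6% and 28.2%. The genes were chosen as glycolysis and hypoxia genes, so this is a description of the list. The windows of 5 genes named above, each before its most upstream start, are shown, for the relation of Pgk1 with Ldha and for targets highest in sgKdm5a RPP tumor 8, with matches in capitals.
Pgk1, chrX:106186850-106187099, plus strand: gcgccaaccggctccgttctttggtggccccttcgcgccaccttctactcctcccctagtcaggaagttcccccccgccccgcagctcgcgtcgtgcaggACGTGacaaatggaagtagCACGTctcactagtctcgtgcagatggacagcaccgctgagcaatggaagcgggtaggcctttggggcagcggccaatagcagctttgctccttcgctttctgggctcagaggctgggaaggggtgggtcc
Ldha, chr7:46845554-46845803, plus strand: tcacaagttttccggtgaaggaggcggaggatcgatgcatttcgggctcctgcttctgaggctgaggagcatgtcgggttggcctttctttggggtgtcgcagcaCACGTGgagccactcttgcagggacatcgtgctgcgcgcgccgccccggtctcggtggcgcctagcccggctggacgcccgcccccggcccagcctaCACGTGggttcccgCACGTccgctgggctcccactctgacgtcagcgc
Pdk1, chr2:71872974-71873223, plus strand: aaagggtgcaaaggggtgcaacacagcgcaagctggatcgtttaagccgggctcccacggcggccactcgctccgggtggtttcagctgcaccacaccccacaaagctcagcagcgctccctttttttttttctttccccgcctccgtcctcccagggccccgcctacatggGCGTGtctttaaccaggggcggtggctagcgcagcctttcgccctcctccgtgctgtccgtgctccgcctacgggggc
Bnip3, chr7:138909507-138909756, minus strand: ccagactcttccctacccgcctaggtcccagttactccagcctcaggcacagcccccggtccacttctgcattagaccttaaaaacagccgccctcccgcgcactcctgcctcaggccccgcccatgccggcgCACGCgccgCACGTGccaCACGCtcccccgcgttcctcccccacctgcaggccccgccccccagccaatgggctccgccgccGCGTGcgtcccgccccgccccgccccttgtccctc
Adm, chr7:110627407-110627656, plus strand: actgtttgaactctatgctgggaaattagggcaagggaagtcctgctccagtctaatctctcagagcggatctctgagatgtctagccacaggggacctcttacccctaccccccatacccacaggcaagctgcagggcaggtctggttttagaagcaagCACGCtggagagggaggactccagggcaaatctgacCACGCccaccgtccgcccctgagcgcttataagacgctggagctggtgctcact
The window of Ldha held CACGTG at 2 places and that of Bnip3 at 1. Pgk1 held 2 matches of ACGTG, and Pdk1 and Adm held matches of GCGTG only. A match of 5 letters is not a binding site, and none of these data measured binding.

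The rest of the pathway gave no calls either. Of lists of further genes, limma called 0 of 11 tested glycolysis isozymes and transporters, 0 of 12 genes of pyruvate entry to mitochondria, 0 of 12 of the pentose phosphate and serine branches, 0 of 9 HIF regulators and 0 of 27 further HIF targets. At an unadjusted p under 0.05 as deposited, 3 of the 27 HIF targets and none of the other lists passed, beside the background of 4.42%. The median log2 difference of those targets was 0.31, against 0.21 for all tested genes. The 2 with the smallest p were Lox, which crosslinks collagen, and Hmox1, the heme-degrading oxygenase. Lox had 0.943, 3.12 and 9.42 FPKM in the sgControl-labelled and 2.58, 6.51 and 16.1 FPKM in the sgKdm5a-labelled tumors, a log2 difference of 0.88 (limma, unadjusted p = 0.0174, adjusted p = 0.852). Hmox1 had 6.10, 19.99 and 33.7 FPKM and 16.04, 35.5 and 81.8 FPKM, a log2 difference of 0.89 (unadjusted p = 0.0217, same adjusted p). The groups overlapped for both genes. Some markers of host cells were higher in the same direction. Median sums in the sgControl-labelled and sgKdm5a-labelled tumors were 70.1 and 246 scaled FPKM for 5 fibroblast markers and 193 and 528 for the macrophage markers. Host cell lists did not all do so. The erythroid markers went the other way, with 1083 and 572, and the neutrophil markers were nearly level, with 8.99 and 9.71. The part of host cells in the values of Lox and Hmox1 was not tested.

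In the remaining lists the 2 genes of smallest p were Bpgm and Pgm1, Pdp1 and Dld, Pgls and G6pdx, and Hif1an and Arnt, with log2 differences from 0.35 for Pgm1 to 0.48 for Pdp1 and limma adjusted p of 0.852 each. Arnt, the partner of the HIF alpha subunits, had medians of 12.5 and 16.6 FPKM in the sgControl-labelled and sgKdm5a-labelled tumors. Hif1an, which hydroxylates the alpha subunits at an asparagine, had 7.19 and 9.04 FPKM.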

How the data were processed

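The authors deposited 1 table of values per gene and library, read here as FPKM from its non-whole values. Per the submitters' processing notes, STAR 2.5.1b, Cufflinks 2.2.1 and mm9 were used, with no roles given. FPKM keep no read totals, so depth is unknown and precision rests on the spread between tumors. Per the labels, a stranded total RNA protocol was used. Of 24043 rows, 27 with names turned into dates were left out. Groups, all 16 libraries, were compared on log2(FPKM + 1), with a pseudocount of 1, in limma 3.58.1 (R 4.3.3, trend and robust), with Benjamini-Hochberg adjustment over 13123 genes and a threshold of 0.05, tested on simulated data. Such differences understate the change of low genes. Isozyme shares and Kdm5a had two-sided exact permutation tests, relations 100000 permutations. The 34 genes are all named, with 2 genes of each further list. Genes and lists were chosen with earlier results of these data known. Chromosomes came from GRCm38.p6 for 99.6% of tested genes, by symbol, since the files' build was not held. Alternatives were other scalings, filters, pseudocounts, weights, blocks, mouse-number series and libraries left out.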

Additional observations from a re-analysis of the deposited data

Results flagged for a closer look

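Of 84 sets of 8 values (34 genes, 8 isozyme shares, in each labelled group), 14 had a lowest or highest tumor whose gap to the next passed Dixon's 95% critical value. Chance gives about 1 in 20 only for independent values with a normal spread. That was not checked for these FPKM and shares, so the count shows no excess over chance. The sgControl RPP tumor 1 library, whose deposited values are low throughout, was lowest for Gpi1 at 36.3 FPKM (other 7 from 106), Pfkl at 4.31 (from 32.0), Pdk1 at 3.24 (from 13.9) and Ndrg1 at 4.92 (from 36.3). It also had the highest Eno2 share, 31.5% (others up to 13.4%).

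The other flags belong to single high or low tumors. In sgControl RPP tumor 5, Ldhb was 48.3 FPKM (others up to 8.34), Epas1 83.0 (up to 16.2) and the Epas1 share 79.0% (up to 42.6%). In sgKdm5a RPP tumor 8, Adm was 25.2 FPKM (up to 10.5) and Car9 4.09 (up to 1.71). Pgk1 was 820 FPKM in sgKdm5a RPP tumor 4 (up to 424), Pkm was 239 in sgKdm5a RPP tumor 6 (other 7 from 386), Aldoc was 217 in sgControl RPP tumor 8 (up to 95.2) and Car9 was 2.32 in sgControl RPP tumor 7 (up to 1.28).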

How the results depend on the processing

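In limma the count of genes called, 1 of 13123, was 0 with median scaling (with or without sgControl RPP tumor 1), quantile normalization, no filter on low values or a pseudocount of 0.1, 5 with sample weights and 6 in mice 190 to 238 alone, and 0 to 2 without each library in turn. The glycolysis and hypoxia genes called were 0 in every setting run, with 0.212 as the lowest adjusted p, but 20 of the 33 changed the sign of their difference relative to all genes in at least 1 of 25 alternatives. Same-numbered tumors correlated at -0.298 to 0.375, 2 of 8 pairs over 0.1 and 2 with their own number best, so the numbers do not pair them. With the tumor number as a replicate block 1 gene and 0 of the 33 were called.

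Differences in isozyme share that turned in sign were Ldhb (0.41 as a log2 ratio, 1.34 points in mice 190 to 238 alone, -0.697 to 0.821 without each library), Hk2 (0.0657 points) and Slc2a3 (0.221 points) in mice 190 to 238 alone, Eno2 (-0.0190 points with Eno1b added), Aldoc (-1.73 to 1.13) and Epas1 (-2.70 to 8.79) without each library. Pair correlations that turned in sign were, as deposited, Ldha-Ldhb 0.15, Hk1-Hk2 0.36, Eno1-Eno2 0.38 and Slc2a1-Slc2a3 0.23. Without the 2 farthest tumors they were Hk1-Hk2 0.13 and Car9-Ankrd37 -0.33. In mice 190 to 238 alone they were Slc2a1-Slc2a3 0.00041 and Vegfa-Pgk1 -0.11, and without sgControl RPP tumor 1 Slc16a1-Slc16a3 -0.025. The causes were not tested. Without read totals, error from counting in low genes such as Slc2a3 and Car9 cannot be given.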

Other observations

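Of the 20 genes most alike to Hk1 and to Pfkl, 5 each lay on their chromosome 10 (4.77% of tested genes), and 5 of those of Hk2 on chromosome 6. Other close genes lay elsewhere. P4ha1 went with Plod3, a collagen lysyl hydroxylase, at r = 0.95 over the 16 tumors and with the chaperone Hsp90b1 at r = 0.90. Pkm went with Thop1 and Sgta at r = 0.89 each, and Aldoa went with its near copy Aldoart1 at r = 0.90. Epas1 went with Rras at r = 0.94, and Vegfa with Sox5 at r = 0.81. These values are descriptions over 16 tumors that share the scaling of each library, and the genes were chosen as the closest of 13123.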
